A study of Mus musculus with 17 samples.

Results

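The LGI family of secreted proteins and the ADAM receptors that bind them were followed across 3 populations of mouse retinal pigment epithelium (RPE). The genes taken were Lgi1, Lgi2, Lgi3 and Lgi4 with Adam22, Adam23 and Adam11, which are 7 of the 22253 genes in the count table. Lgi1 was selected because of its pattern over these same libraries, although the contrast that drew attention to it was not recorded, and the other members were added as its relatives and receptors. The levels and differences of Lgi1 are therefore given as a description, without a test.

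RPE cells were picked by hand from Serpine3 GFP/+ mice on the C57BL6/J background at 2 months. The study used males and females, and the sex of the mice of these pools is not given in the sources used here. In these mice GFP and a polyadenylation sequence stand behind the start codon in exon 2 of 1 Serpine3 allele. All 3 groups carry this allele, so that every animal holds 1 intact copy of Serpine3. The groups were GFP+-RPE from the periphery (6 libraries), peripheral RPE without GFP (5 libraries) and central RPE without GFP (6 libraries), and the labels name no agent given. Each library was a SMART-Seq library of a pool of 10 to 15 cells by the sample labels. Mice 1, 2, 4, 5 and 7 gave all 3 groups, mouse 3 gave GFP+-RPE only and mouse 6 central RPE only, and mouse 1 stands for 2 animal numbers.

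LGI proteins are secreted and carry leucine-rich repeats followed by EAR (epitempin) repeats. LGI1, in which mutations cause an inherited lateral temporal lobe epilepsy, bridges ADAM22 and ADAM23 at synapses and links them to PSD-95 scaffolds, AMPA receptors and Kv1 potassium channels. ADAM11, ADAM22 and ADAM23 are membrane proteins of the ADAM metalloprotease family that lack protease activity and act as binding partners. The RPE is the pigmented epithelium behind the photoreceptors, which it serves with retinoid recycling and phagocytosis of outer segments.

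The coding sequence at the zinc site shows how the receptors differ from protease relatives that the same cells express. In active ADAMs this stretch encodes a His-Glu-x-x-His motif. Of 8 codons, those for His, Glu and His in Adam9, Adam10 and Adam17, and the codons aligned to them, are in capitals (GENCODE M21 transcripts on GRCm38). Adam7, a further relative that lacks the Glu codon, is shown because these cells express it.
Adam11: CAGACGctagggCAGaacttgggc
Adam22: CAGTCActagccCACaatgtcggt
Adam23: CAGAGCctggctCAAaaccttgga
Adam7: CATCAGctgggaCACagcctgggg
Adam9: CATGAAttggggCATaaccttgga
Adam10: CATGAAgttggaCATaactttgga
Adam17: CATGAAttgggaCATaattttgga
Adam11 (chr11:102773613-102773636, plus strand) and Adam23 (chr1:63547763-63547786, plus strand) keep 0 of the 2 His codons. Adam22 (chr5:8143073-8143096, minus strand) keeps 1 of 2, and none of the 3 receptors keeps the Glu codon. The receptor and Adam7 stretches were placed by alignment with Adam9, and all 3 receptor stretches lie in exon 13 of the transcript used.

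Total counts ranged from 9896118 to 22467079 per library, so that 3 counts, the most that a count of 0 was taken to allow, correspond to 0.116 to 0.554 CPM (counts relative to the library size, which was scaled by TMM). Such floors cover counting error only, since PCR copies were counted. Serpine3, which checks the GFP labels, had 107 to 576 counts in all 6 GFP+-RPE libraries, 5 in the peripheral GFP-negative library of mouse 1 and 0 in the other 10 libraries. Of 10 RPE markers, 9 were detected in each group (the list summed to 48640 to 99312 CPM over the libraries), and Best1 stayed at or under 3 counts. Other measures moved with position. The mitochondrial share of counts was 0.710% to 17.2% in GFP+-RPE, 12.5% to 30.4% in peripheral GFP-negative RPE and 13.7% to 47.3% in central RPE. Genes with at least 10 counts numbered 9089 to 10231, 7966 to 10543 and 5392 to 10450. Their part in the differences below was not tested.

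Lgi1 transcripts were abundant at the periphery and scarce at the center. In GFP+-RPE the counts were 1448, 179, 1452, 428, 707 and 2027 in mice 1, 2, 3, 4, 5 and 7. They were 414, 141, 761, 96 and 154 in peripheral GFP-negative RPE of mice 1, 2, 4, 5 and 7. They were 22, 6, 12, 7, 19 and 6 in central RPE of mice 1, 2, 4, 5, 6 and 7. Every peripheral library, with or without GFP, was above every central library, whereas the GFP+ and GFP-negative peripheral ranges overlapped. In CPM, Lgi1 (chr19:38264536-38312214, plus strand) stood at 51.3 ± 29.8 (SD, n = 6) in GFP+-RPE, 18.0 ± 12.3 (n = 5) in peripheral GFP-negative RPE and 1.13 ± 0.547 (n = 6) in central RPE. In pools of cells, fewer cells that express a gene and less RNA per cell cannot be told apart.

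**Figure D1:**
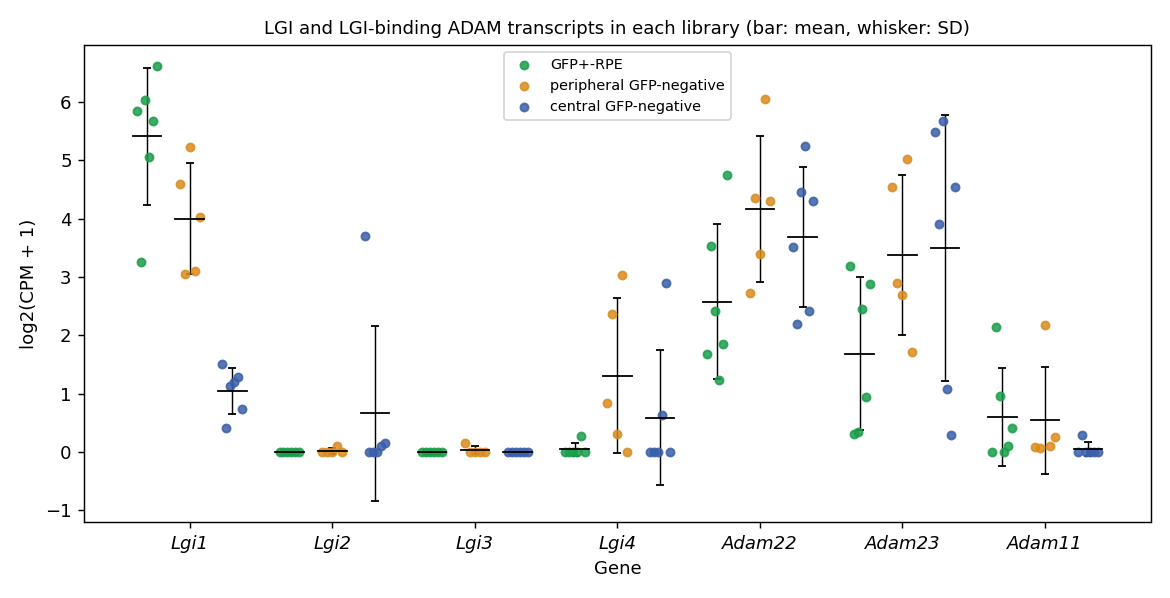
Levels of the 7 genes in each of the 17 libraries as log2(CPM + 1), with points for libraries colored by group, bars for the mean and whiskers for the SD of the 6, 5 and 6 libraries. Lgi1 falls from GFP+-RPE to central RPE, Adam22 and Adam23 are present in all groups with wide scatter, and Lgi2, Lgi3, Lgi4 and Adam11 are near 0 in most libraries.

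The fitted log2 difference of Lgi1 was 5.40 (SE 0.89) for GFP+-RPE against central RPE and 3.89 (SE 1.30) for peripheral GFP-negative against central RPE. Between GFP+-RPE and its GFP-negative peripheral neighbors it was 1.53 (SE 0.59). Leaving out single libraries moved these values to between 5.16 and 5.66, 3.47 and 4.11, and 1.25 and 1.94. Within the 5 mice that gave all groups, both peripheral populations exceeded the central one in 5 of 5 mice, by a median ratio of 30.3 for GFP+-RPE (25.8 to 145) and 22.2 for GFP-negative RPE (5.89 to 30.6). GFP+-RPE exceeded peripheral GFP-negative RPE in 4 of 5 mice, with a median ratio of 2.44 (0.882 to 6.53). The exception was mouse 4, at 32.3 against 36.6 CPM, and its order turned when library totals were used without TMM (39.6 against 38.8 CPM). The animals fall into 2 runs of consecutive numbers, mice 1 to 3 and 4 to 7. The GFP+-RPE mean was 43.1 CPM in the first run (n = 3) and 59.6 in the second (n = 3). The central mean was 1.09 (n = 2) and 1.15 (n = 4) CPM, and the peripheral GFP-negative mean was 15.2 (n = 2) and 19.8 (n = 3) CPM. Each peripheral population was above the central one in each run. The antisense gene Gm42723 overlaps exons of Lgi1 on the other strand, and the use of strand in counting is not given in the sources used here.

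**Figure D2:**
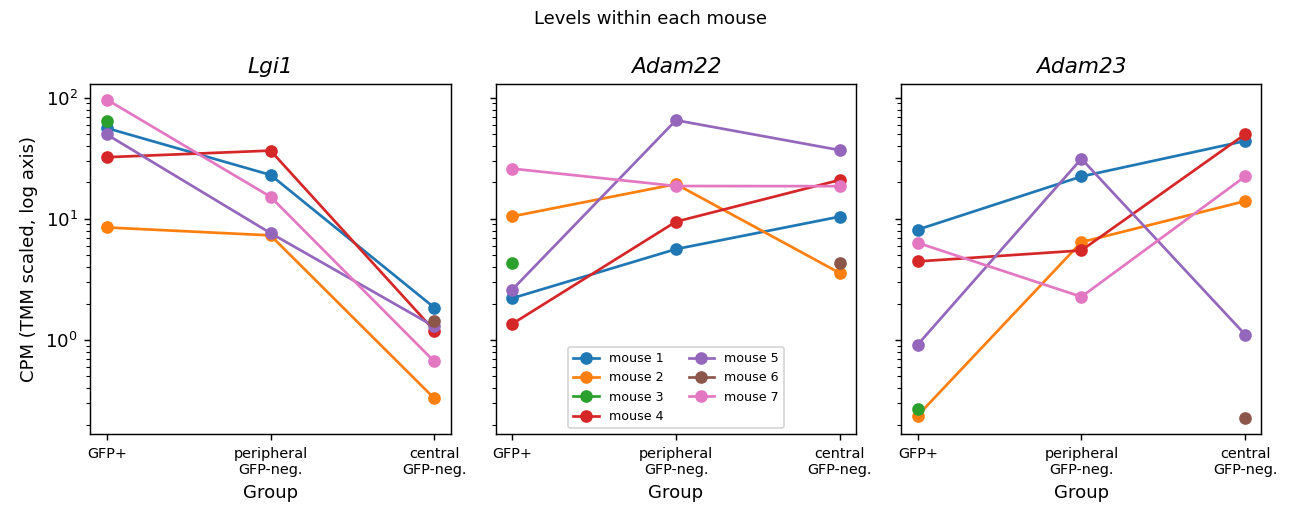
CPM of Lgi1, Adam22 and Adam23 (log axis) in each group, with 1 line per mouse and single points for mice 3 and 6. Lgi1 falls to the center in every mouse with all 3 groups, and the lines of Adam22 and Adam23 cross.

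The other LGI genes were detected in few libraries, and none of them passed the filter on low counts. Lgi2 (chr5:52533517-52566462, minus strand), a brain LGI related to LGI1, had 143 counts in central RPE of mouse 1 and 0 or 1 in each of the other 16 libraries. Its one high library is a single pool, and mouse 1 had 0 counts in both peripheral populations. Lgi3 (chr14:70530685-70538324, plus strand) had 2 counts in the peripheral GFP-negative library of mouse 1 and 0 elsewhere, which is under the floor in all groups.

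Lgi4, the Schwann cell ligand that acts through ADAM22 in the myelination of peripheral nerves, was found mainly in peripheral GFP-negative RPE. Its counts there were 14, 80, 5, 91 and 0 in mice 1, 2, 4, 5 and 7. Lgi4 (chr7:31059342-31070935, plus strand) had 3 counts in GFP+-RPE of mouse 5 and 0 in the other 5 GFP+ libraries. In central RPE it had 86 counts in mouse 6, 3 in mouse 5 and 0 in the other 4 libraries. Ranges overlapped in all comparisons. Exons of Fxyd3, an ion transport regulator, overlap Lgi4 on the other strand, and Fxyd3 had 0 counts in the peripheral GFP-negative libraries. The Schwann cell markers Egr2 and Ncmap were at or under 3 counts in every library. Given per kilobase of exon, Lgi1 made up 99.0% to 100% of the LGI level in GFP+-RPE, 29.7% to 100% in peripheral GFP-negative RPE and 8.13% to 100% in central RPE.

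The receptors were detected in every group. Adam22 (chr5:8072352-8368160, minus strand), the postsynaptic and axonal receptor of LGI1 and LGI4, had 57, 221, 97, 18, 37 and 545 counts in GFP+-RPE of mice 1, 2, 3, 4, 5 and 7. Adam22 had 101, 374, 197, 822 and 189 counts in peripheral GFP-negative RPE of mice 1, 2, 4, 5 and 7, and 124, 65, 210, 200, 58 and 168 in central RPE of mice 1, 2, 4, 5, 6 and 7. All 3 ranges overlapped, and mouse 7 stood high in the GFP+ group and mouse 5 in the GFP-negative peripheral group. The levels were 7.83 ± 9.49, 23.7 ± 24.0 and 15.8 ± 12.6 CPM (SD, n = 6, 5 and 6).

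Adam23 (chr1:63445891-63596276, plus strand), the receptor placed on the presynaptic side, had 210, 5, 6, 59, 13 and 133 counts in GFP+-RPE of mice 1, 2, 3, 4, 5 and 7. Its counts were 402, 124, 114, 395 and 23 in peripheral GFP-negative RPE of mice 1, 2, 4, 5 and 7. In central RPE they were 523, 255, 501, 6, 3 and 202 in mice 1, 2, 4, 5, 6 and 7, so that mice 5 and 6 lay near the floor while the other 4 had 202 to 523 counts. The levels were 3.39 ± 3.41, 13.6 ± 12.6 and 22.0 ± 21.2 CPM. Adam23 was lower in GFP+-RPE than in central RPE in 5 of 5 mice (4 of 5 without TMM) and lower than in peripheral GFP-negative RPE in 4 of 5.

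Adam11 (chr11:102761439-102780262, plus strand), a neuronal ADAM that localizes Kv1 channels in the cerebellum, was detected in 3 GFP+-RPE libraries and 1 library of each other group. It had 72, 21 and 7 counts in GFP+-RPE of mice 2, 3 and 7 and 0 or 1 in the other 3. Adam11 had 73 counts in peripheral GFP-negative RPE of mouse 4 and 1 or 2 in the other 4 libraries, and 4 counts in central RPE of mouse 2 and 0 in the other 5.

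Differences in the receptors were not detectable at this number of libraries. For Adam22 the log2 difference was −1.15 (SE 1.11, adjusted p = 1.00) between GFP+-RPE and central RPE, −1.60 (SE 0.94, adjusted p = 0.988) between GFP+-RPE and peripheral GFP-negative RPE, and 0.50 (SE 1.02, adjusted p = 1.00) between peripheral GFP-negative and central RPE. For Adam23 the values were −2.74 (SE 1.36, adjusted p = 0.894), −2.02 (SE 1.20, adjusted p = 0.994) and −0.72 (SE 1.25, adjusted p = 1.00). These are edgeR quasi-likelihood values with Benjamini-Hochberg adjustment over all genes tested. The values rested in part on single libraries. Without peripheral GFP-negative mouse 5, the Adam22 difference was −0.71 between GFP+-RPE and peripheral GFP-negative RPE and −0.38 between peripheral GFP-negative and central RPE, and the Adam23 difference of the former comparison was −1.42. Without GFP+ mouse 7 the Adam22 differences of GFP+-RPE were −1.98 against central and −2.47 against peripheral GFP-negative RPE. Without central mouse 5 Adam22 stood at −0.60 for GFP+-RPE and 1.04 for peripheral GFP-negative RPE, each against central RPE.

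Of the members, 3 (Lgi1, Adam22 and Adam23) passed the filter in each comparison, and 0 of the 3 met the call of an adjusted p under 0.01 with an absolute log2 fold change over 1. Of all genes tested, 0.0431%, 0.0396% and 0% met it for GFP+-RPE against central, GFP+-RPE against peripheral GFP-negative, and peripheral GFP-negative against central RPE. In the last, 257 of 9535 genes had an unadjusted p under 0.05 in edgeR, and DESeq2 called 28 genes. DESeq2 called 1 member, Lgi1, in both comparisons with central RPE, where it called 1.71% of all genes tested for GFP+-RPE and 0.171% for peripheral GFP-negative RPE, and 0 members between the 2 peripheral populations (0.442% of all genes). With all 3 groups in the fit, edgeR called 1 member, Lgi1, in GFP+-RPE against central RPE, beside 0.0469% of all genes. Non-overlapping groups were seen for 1 of the 3, Lgi1, which was higher in GFP+-RPE than in central RPE (0.862% of all genes tested were higher and 0.269% lower in this way) and higher in peripheral GFP-negative than in central RPE (0.64% and 0.115%). None of the 3 separated GFP+-RPE from peripheral GFP-negative RPE (0.624% and 0.663%). Nothing is read from these counts for Lgi1, since its pattern chose it. In edgeR, Serpine3 did not meet the call for GFP+-RPE against central RPE either (log2 difference 10.55, SE 1.88, adjusted p = 0.0699). Serpine3 had at least 107 counts in all 6 GFP+-RPE libraries and 0 in all 6 central ones. A missing call therefore does not show equal levels.

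**Figure D3:**
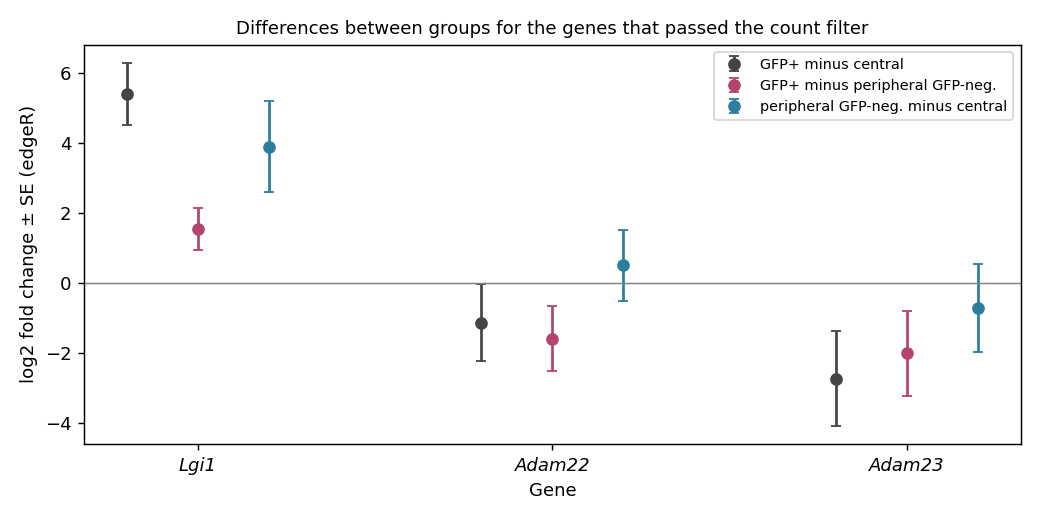
Fitted log2 fold changes of Lgi1, Adam22 and Adam23 with their standard errors for the 3 comparisons. Lgi1 lies above 0 in each, from 1.53 to 5.40, while Adam22 and Adam23 range from −2.74 to 0.50.

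The order of the members by mean level changed between groups. Lgi1 was chosen for its pattern in these libraries, so its place and its ratio to the receptors are description only. On the scale of CPM per kilobase of exon, GFP+-RPE had Lgi1 at 4.52 ± 2.63, Adam22 at 0.546 ± 0.661 and Adam23 at 0.190 ± 0.191, and the spreads of the 2 receptors overlapped. Peripheral GFP-negative RPE had Adam22 at 1.65 ± 1.67, Lgi1 at 1.58 ± 1.08 and Adam23 at 0.759 ± 0.706, whose spreads all overlapped. In central RPE Adam23 stood at 1.23 ± 1.18 and Adam22 at 1.10 ± 0.877, overlapping each other, and Lgi1 at 0.0993 ± 0.0482, which overlapped the spread of Adam23. Adam22 was above Lgi1 in all 6 central libraries, whereas Adam23 was below Lgi1 in mouse 5 (0.0619 against 0.114) and mouse 6 (0.0126 against 0.125). Adam11 stood at 0.140 ± 0.235, 0.138 ± 0.270 and 0.00646 ± 0.0158. The Lgi1 level divided by the summed level of the 3 receptors had a median of 8.20 (0.555 to 17.9) in GFP+-RPE, 0.916 (0.106 to 2.03) in peripheral GFP-negative RPE and 0.0352 (0.0230 to 0.397) in central RPE. Only the GFP+ library of mouse 2, the lowest in Lgi1, was below 1 in its group.

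Partners of LGI and ADAM22 that are known from neurons were examined together with other EAR repeat proteins and other ADAMs, which are relatives. These made 8 lists with 45 genes, all of them in the count table, and the values below pool partners and relatives. The number tested was 21, 23 and 24 in the 3 comparisons in the order above, and 0 were called by edgeR in each. An unadjusted edgeR p under 0.05 was found for 1 of 21, 3 of 23 and 0 of 24 (4.76%, 13.0% and 0%), against 5.80%, 5.58% and 2.70% of all genes tested. Their median log2 fold change was 0.02, 0.25 and −0.12, beside 0.00, 0.01 and 0.01 over all genes. DESeq2 called 1 of them in the first comparison and 0 in the others, beside 1.71%, 0.442% and 0.171% of all genes tested. That gene was Dlg2, named after its values were seen, at 8.29 ± 7.19, 4.82 ± 4.12 and 1.03 ± 0.993 CPM in GFP+-RPE, peripheral GFP-negative RPE and central RPE. In edgeR the Dlg2 log2 difference of the first comparison was 2.95 (SE 1.21, adjusted p = 0.675).

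Scaffolds of the PSD-95 family that bind the tail of ADAM22 were present in all groups. Dlg1 (SAP97) stood at 52.1 ± 22.7, 50.0 ± 11.7 and 65.3 ± 22.8 CPM and Dlg3 (SAP102) at 47.0 ± 19.4, 88.8 ± 43.5 and 62.6 ± 48.2 CPM in GFP+-RPE, peripheral GFP-negative RPE and central RPE. Dlg4, which encodes PSD-95 itself, had a CPM of 10.3 ± 9.12, 13.1 ± 5.71 and 11.7 ± 5.85. The AMPA receptor list had 1 gene, the subunit Gria3, above a mean of 10 CPM, at 11.7 ± 19.9, 17.5 ± 12.0 and 22.6 ± 23.2 CPM. In GFP+-RPE 6 of the 8 genes of this list stayed at or under 3 counts.

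The Kv1 channel complex was represented by the channel subunit Kcna2 (47.8 ± 18.0, 65.0 ± 26.4 and 72.5 ± 53.0 CPM), by Cntnap2, which encodes the adhesion protein CASPR2 (45.5 ± 24.2, 79.8 ± 23.8 and 75.1 ± 72.6 CPM), and by the beta subunit Kcnab1. Kcnab1 stood at 33.5 ± 19.3, 22.5 ± 9.97 and 4.88 ± 12.0 CPM, with 1 central library, mouse 1, at 29.3 CPM. The Kcnab1 log2 difference between GFP+-RPE and central RPE was 2.61 (SE 1.74, adjusted p = 1.00). Of other LGI-binding proteins, the membrane scaffolds Flot1 and Flot2 were detected at means of 14.2 to 27.2 and 21.8 to 34.0 CPM, and Rtn4r, the Nogo receptor, at means of at most 0.328 CPM. The 14-3-3 proteins, which bind the tail of ADAM22, summed to 1123 to 1553 CPM in GFP+-RPE, 724 to 1599 in peripheral GFP-negative RPE and 861 to 1520 in central RPE, with Ywhae at 519 to 603 CPM in the group means. Adgrv1, a large adhesion receptor that shares the EAR repeats of LGI proteins, stood at 11.8 ± 9.22, 5.26 ± 7.64 and 15.4 ± 15.3 CPM.

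Among ADAMs whose zinc site is shown above as intact, Adam9 and Adam10 had levels per kilobase above those of Adam22 in each group mean. Per kilobase of exon, Adam9 had 18.6, 8.28 and 12.4 and Adam10 had 9.70, 8.02 and 6.44 CPM, against 0.546, 1.65 and 1.10 CPM for Adam22. Adam9 stood at 76.7 ± 41.8, 34.1 ± 24.7 and 50.9 ± 31.5 CPM and Adam10 at 47.6 ± 16.1, 39.4 ± 14.1 and 31.6 ± 24.1 CPM in GFP+-RPE, peripheral GFP-negative RPE and central RPE. Adam17, the TNF-alpha converting enzyme, was at 12.5 ± 11.8, 3.52 ± 3.67 and 3.72 ± 6.96 CPM. Per kilobase Adam17 had 1.74, 0.491 and 0.520 CPM, above Adam22 in GFP+-RPE and below it in both GFP-negative groups. Adam7 stood at 83.5 ± 75.0, 46.1 ± 12.1 and 17.6 ± 25.9 CPM, with a log2 difference of 2.30 (SE 1.39, adjusted p = 1.00) between GFP+-RPE and central RPE. None of these differences passed the test.

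Markers of other cell types were examined as well. Of 10 retinal neuron markers, 8, 7 and 7 stayed at or under 3 counts in all libraries of GFP+-RPE, peripheral GFP-negative RPE and central RPE. The list summed to 0 to 31.8, 2.77 to 40.1 and 0.887 to 105 CPM, with Syt1 at 6.42 ± 7.72, 18.6 ± 11.7 and 42.5 ± 35.9 CPM. The rod and cone list summed to 3.42 to 35.8, 10.8 to 38.7 and 13.6 to 128 CPM, with Pde6a at 5.96 ± 3.47, 12.6 ± 2.46 and 45.2 ± 44.5 CPM. Both lists had their highest median in central RPE, but single genes of them went the other way. Rbpms of the neuron list stood at 5.02 ± 6.50, 2.76 ± 3.95 and 0.486 ± 1.19 CPM. Nrl and Sag of the rod and cone list reached 261 and 186 counts in 1 GFP+-RPE library each, against at most 0 and 12 in central RPE. The part of both lists in the differences of Lgi1 was not tested. Melanocyte markers, which RPE shares in part, summed to 555 to 1194, 317 to 929 and 154 to 721 CPM. Mueller glia markers summed to 719 to 928, 475 to 826 and 408 to 776 CPM. Most of this was Glul, at 667 ± 65.8, 622 ± 126 and 557 ± 101 CPM. Of the 6 genes of this list, 4, 2 and 2 stayed at or under 3 counts in all libraries of the group. Vim was the only gene of any list that edgeR called, higher in GFP+-RPE than in peripheral GFP-negative RPE (log2 fold change 2.33, SE 0.30, adjusted p = 0.00392). Endothelial markers summed to at most 26.0 CPM, fibroblast markers to at most 2.03 CPM, and the macrophage list to 35.6 to 146 CPM, nearly all of it Csf1r.

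The 10 genes whose log2(CPM + 1) followed Lgi1 most closely over the 17 libraries, among 10686 genes with at least 10 counts in 5 libraries, had Pearson's r from 0.802 to 0.856. The points share groups and mice, so that r mainly describes the step between groups, and within groups it ranged from −0.14 to 0.70. First was Bcan, which encodes brevican, a proteoglycan of the neural extracellular matrix (r = 0.856). Bcan stood at 160 ± 68.6, 12.1 ± 8.79 and 2.95 ± 7.13 CPM in GFP+-RPE, peripheral GFP-negative RPE and central RPE. It was followed by Upk3b, a uroplakin found on mesothelium (r = 0.852; 343 ± 80.8, 71.6 ± 38.5 and 6.85 ± 16.2 CPM), and Wfikkn2, a secreted inhibitor of GDF8 and GDF11 (r = 0.810; 217 ± 144, 168 ± 86.2 and 24.9 ± 9.78 CPM). The central means of Bcan and Upk3b came almost wholly from 1 library each, mouse 1 at 17.5 CPM for Bcan and mouse 4 at 40.0 CPM for Upk3b. The next were the Kv1 subunit Kcnab1 described above (0.808), Cxxc5 (0.808), the interleukin-17 receptor subunit Il17re (0.806), the growth factor Fgf1 (0.805), the melanosome enzyme Tyrp1 (0.805), Dnajc6, which encodes the clathrin uncoating factor auxilin (0.803), and the serotonin receptor Htr3a (0.802). The other members did not follow Lgi1, with r from −0.32 for Adam23 to 0.28 for Adam11.

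**Figure D4:**
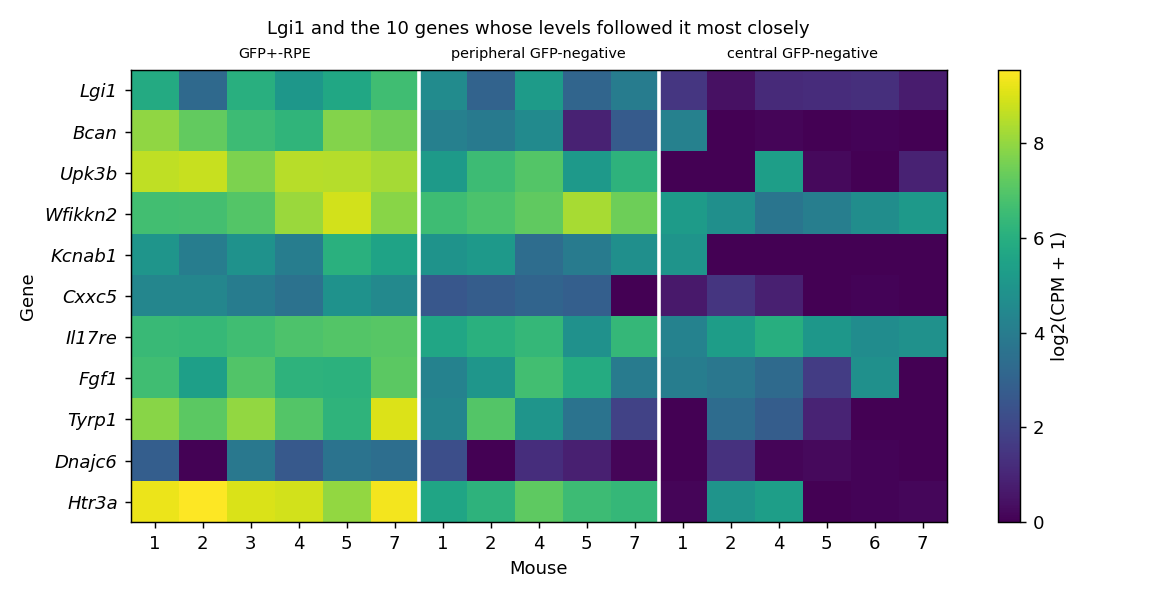
Color gives log2(CPM + 1) of Lgi1 and the 10 genes of highest Pearson's r with it (0.802 to 0.856), with 1 column per library sorted by group and mouse. Levels fall from the GFP+ columns to the central columns, and single central libraries keep Bcan and Kcnab1 (mouse 1), Upk3b (mouse 4) or Htr3a (mice 2 and 4).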

How the data were processed

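RPE cells of 17 pools were profiled by SMART-Seq. The authors deposited estimated counts per gene symbol as whole numbers, not normalized; per the labels, fastp and Salmon and the build GRCm38.p6 were used, with no roles or versions given. Groups and mice came from the labels, all sample columns were matched by name and 0 were unused. The methods of the study give a smaller number of cells per pool than the labels.

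Comparisons were fitted in R (version 4.3.3). The fits were made by edgeR (version 4.0.16), using filterByExpr, TMM and the quasi-likelihood test on its 2 groups, with Benjamini-Hochberg adjustment over all genes tested. The SE is the absolute log2 fold change over the square root of F. DESeq2 (version 1.42.0), other scalings, filters, covariates and each library left out were alternatives. CPM used TMM over all libraries, and lengths were the union of GENCODE M21 exons (all 7 genes matched). The fit of GFP+-RPE against central RPE was tried on simulated counts, with large changes in well expressed genes and the same spread set for all genes. That simulation does not cover genes as low and variable as the receptors. The zinc-site stretches were placed with Biopython (version 1.88), and figures were drawn with matplotlib (version 3.10.9).

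The labels tie the libraries of each mouse to 1 animal, which pairs them, except for mouse 1, whose libraries name 2 animals and are not shown to be from 1. Over 15 pairs of libraries from 1 mouse, the correlation of deviations from group means was −0.0200 to 0.0934, with 0 above 0.1. No library copied another (highest correlation 0.924 over 136 pairs).

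The members and lists were chosen with earlier results of these data known. The genes named were the 7 members, list genes that were called or, with none called, had at least 10 CPM in a group mean, the 10 most like Lgi1, and Serpine3. Protein sequences were not used here. Some results for single marker genes are not reported here.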

Additional observations from a re-analysis of the deposited data

Results flagged for a closer look

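A library was singled out where its gap to the nearest library of its group exceeded Dixon's critical value. Of 15 gene and group combinations with more than 3 counts in a library, 7 were singled out. For normally distributed values chance alone does so in about 1 of 20 groups. The levels here are skewed, and a group with 1 nonzero library, as Adam11 in central RPE, is always singled out. The 7 can therefore not be set against that rate. Lgi2 in central RPE of mouse 1 stood at 12.0 CPM. Lgi4 in central RPE of mouse 6 stood at 6.45 CPM. Adam22 reached 26.0 CPM in GFP+-RPE of mouse 7 and 65.3 CPM in peripheral GFP-negative RPE of mouse 5. Adam11 reached 3.42 CPM in GFP+-RPE of mouse 2, 3.51 CPM in peripheral GFP-negative RPE of mouse 4 and 0.220 CPM in central RPE of mouse 2. The causes were not tested. No Lgi1 or Adam23 library was singled out in this way.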

How the results depend on the processing

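For all genes, the count called in GFP+-RPE against central RPE was 4, and it was 206 with DESeq2, 2 with a filter of 10 counts in 5 libraries, 1 with the run as a covariate, 8 at an adjusted p under 0.05 with no fold limit, and 1 to 3 without single libraries. Under the replicate block, in which libraries of 1 mouse are paired, 56 genes were called. Of these, 1 was higher and 55 were lower in GFP+-RPE, whereas the 4 of the main fit were all higher. In GFP+-RPE against peripheral GFP-negative RPE the count was 4, and it was 66 with DESeq2, 0 with all 3 groups in the fit, 0 with the replicate block, 1 with the run as a covariate and 0 to 5 without single libraries. In peripheral GFP-negative against central RPE it was 0, and 28 with DESeq2. The causes were not tested. The pairing by mouse changed no call of a member. Members called against central RPE went from 0 to 1 (Lgi1) for GFP+-RPE with DESeq2, with all 3 groups in the fit, and at an adjusted p under 0.05, and from 0 to 1 for peripheral GFP-negative RPE with DESeq2. It stayed at 0 in each fit without a single library. Nothing is read from these calls of Lgi1, since its pattern in these libraries chose it. The Adam22 difference between peripheral GFP-negative and central RPE was 0.50 and ran from −0.38 (without peripheral GFP-negative mouse 5) to 1.04 as single libraries were left out. The other 182 fitted differences of Lgi1, Adam22 and Adam23 kept their direction and their side of the call, or for Lgi1 moved by less than 1 SD. Of the 10 genes most like Lgi1, 2 were shared with Spearman's correlation and 5 with a pseudocount of 0.1. Mean levels moved by less than 1 SD without TMM or without mitochondrial genes. Counts at the floor limit Lgi2, Lgi3, Lgi4 and Adam11, and pools of few cells limit all values.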
